A study of Mus musculus with 24 samples.

Results

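The genes described here are 7 mouse Fc receptor genes of macrophages and endothelium: Fcgr1, Fcgr2b, Fcgr3, Fcgr4, Fcer1g, Fcgrt and Fcrls. They were chosen by symbol, all 7 were found once in each of the 4 count tables, and they are 7 of 48820 entries per table. Counts of RNA-seq reads were available for 24 libraries in 8 groups of 3. Liver macrophages, sorted as CD45+Ly6C-F4/80+CD64+ cells, came from Gdf2/Bmp10 HSC-KO mice (Gdf2 fl/fl Bmp10 fl/fl with Lrat Cre, which is active in hepatic stellate cells, HSCs) and from littermates with the floxed alleles and no Cre. Hepatic endothelial cells (ECs), sorted as CD45-CD31+ cells, and whole livers came from the same 2 genotypes. A further set of sorted liver macrophages came from Smad4 fl/fl Vav1 Cre mice (Smad4 cKO), in which Cre is active in blood-derived cells, and from Smad4 fl/fl mice without Cre (Smad4 control). All were C57BL/6 mice, aged 8 to 10 weeks for sorted cells and 12 weeks for livers. By the labels, 3 mice gave both a macrophage and an EC library.

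Fc receptors bind the constant part of antibodies. In the mouse, Fcgr1, Fcgr3 and Fcgr4 encode the activating IgG receptors FcγRI, FcγRIII and FcγRIV, which signal through the ITAM of the common γ chain encoded by Fcer1g. Fcgr2b encodes FcγRIIB, the inhibitory IgG receptor, which carries an ITIM. Liver sinusoidal endothelial cells are known for a high level of FcγRIIB, with which they take up small immune complexes from the blood. Fcgrt encodes the heavy chain of the neonatal Fc receptor, which returns IgG and albumin to the blood. Fcrls encodes an Fc receptor-like protein that is best known as a marker of microglia.

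Total counts ranged from 60911527 to 110879155 per library. The deleted genes were checked first. Gdf2 had 720 to 2036 counts in control livers and 178 to 287 in HSC-KO livers, and Bmp10 had 180 to 362 and 7 to 22. Smad4 had 3185 to 4416 counts in Smad4 control macrophages and 1289 to 1669 in Smad4 cKO macrophages. In ECs, Gdf2 had 76 to 241 counts in control and 0 to 5 in HSC-KO libraries, and in macrophages, where it overlapped between the groups, 0 to 195 and 0 to 12. Levels are given as CPM, counts scaled to the library size with TMM factors over all 24 libraries, and levels of different genes are compared only per kilobase of exon. Of the 8 macrophage markers, none was at 0 in any macrophage group, but 3 fell in each macrophage knockout, and all 5 Kupffer cell markers (Clec4f, Vsig4, Timd4, Cd5l and Cdh5) fell in both macrophage knockouts. Fcgr1 needs care, because its product CD64 was a gate of the macrophage sort, so that its level in macrophages was partly set by the sort. Cells were also blocked with an antibody against CD16 and CD32, the products of Fcgr3 and Fcgr2b, before staining. The EC library HSC-KO replicate 1 stood apart from the other 2 libraries of its group: the sinusoidal marker Stab2 was at 844 CPM in it, against 102 and 87.5 CPM, and Clec4g was at 68.9 CPM, against 4.23 and 3.17 CPM. Changes in ECs of the members that could be tested, and of several other genes, are therefore given with and without it. Those of cell type markers are given with all libraries. Macrophage libraries also held different amounts of endothelial RNA, with summed levels of 11 endothelial markers from 11.6 to 273 CPM in the Gdf2/Bmp10 experiment and from 510.5 to 1823 CPM in the Smad4 experiment.

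Fcgr2b, Fcgr4, Fcgr3 and Fcer1g lie together on chromosome 1, in this order. In GENCODE vM21 for GRCm38, the build of the counts, Fcgr2b is at chr1:170958617-170976547 on the minus strand, Fcgr4 at chr1:171018920-171029761 on the plus strand, Fcgr3 at chr1:171051174-171064935 and Fcer1g at chr1:171229572-171234365, both on the minus strand. Fcgr1 (chr3:96282909-96293969) and Fcrls (chr3:87250758-87263738) lie apart on chromosome 3, and Fcgrt (chr7:45092990-45103851) on chromosome 7, all on the minus strand. Annotated transcripts of Fcgr2b and Fcgr3 share an identical stretch of 129 bases, whereas no other pair of members shares more than 15 bases. Reads from that stretch could be split between Fcgr2b and Fcgr3 by the authors' counting. Exons of Fcgr2b overlap 155 bases of the gene Gm38204 on the opposite strand, and the use of strand in counting is not given in the sources used here.

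The 250 bases before the start site of the genes that rose most in HSC-KO macrophages, Fcrls and Fcgr2b, are shown first, from RefSeq's GRCm38.p6 promoters and on the strand of the gene. They lie at chr3:87263525-87263774 and chr1:170976072-170976321. RefSeq places both start sites inside the GENCODE genes given above, so that the Fcgr2b stretch lies wholly within its gene and the Fcrls stretch for the most part. The capitals mark GAGGAA, the purine-rich core bound by PU.1, the main transcription factor of macrophages.
Fcrls: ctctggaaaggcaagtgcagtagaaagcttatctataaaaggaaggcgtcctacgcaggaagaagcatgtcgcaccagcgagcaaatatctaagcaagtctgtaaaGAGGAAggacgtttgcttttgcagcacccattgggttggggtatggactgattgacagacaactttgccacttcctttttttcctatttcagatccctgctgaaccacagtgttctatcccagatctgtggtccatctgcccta
Fcgr2b: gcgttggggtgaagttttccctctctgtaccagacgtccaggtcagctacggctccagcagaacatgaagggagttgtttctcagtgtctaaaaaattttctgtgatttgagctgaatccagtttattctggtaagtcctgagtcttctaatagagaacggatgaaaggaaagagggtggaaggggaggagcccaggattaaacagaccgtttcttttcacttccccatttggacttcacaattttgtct
On either strand, GAGGAA was present in these 250 bases in 4 of 7 members and in 23.3% of 32851 promoters of the same length. It was in none of the 250 bases of Fcgr2b, Fcer1g and Fcgrt. The activating receptor genes carried it on the opposite strand, read as TTCCTC, at 55 to 50 bases before the start of Fcgr1, 22 to 17 before that of Fcgr4 and 15 to 10 before that of Fcgr3. The next lines give these windows at chr3:96294011-96294032, chr1:171059396-171059417 and chr1:171018896-171018917. For Fcgr3, which has 2 start sites in RefSeq, the downstream one was used.
Fcgr1: caacttccTTCCTCttttctaa
Fcgr3: ccatttccTTCCTCtttttgta
Fcgr4: ctatttacTTCCTCtcttctag
Neither the Smad palindrome GTCTAGAC (0.167% of promoters) nor the GC-rich element GGCGCC (9.59%) was present in these windows of any member. These matches are descriptions of the sequence only.

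Control macrophages and control ECs were compared first, to show which cell type held which receptor. In control macrophages, Fcer1g was the most abundant member per kilobase (1272 ± 102 CPM per kb, mean ± SD, n = 3), followed by Fcgr4 (358 ± 49.6), Fcgr3 (308 ± 57.6), Fcgrt (243 ± 7.55) and Fcgr1 (121 ± 8.99), with Fcgr2b (4.89 ± 3.8) and Fcrls (0.18 ± 0.137) far below. The libraries of Fcgr3 overlapped with those of both Fcgr4 and Fcgrt in this order. In control ECs the order was different, with Fcgr2b (414 ± 30.1 CPM per kb) and Fcgrt (401 ± 27.1) at the top with overlapping libraries, then Fcer1g (82.3 ± 9.93), and with Fcgr3 (3.84 ± 4.37), Fcgr4 (0.219 ± 0.117), Fcgr1 and Fcrls near or at 0.

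Fcgr2b was at 5.76, 49.8 and 29.4 CPM in the 3 control macrophage libraries and at 2598, 2317 and 2279.5 CPM in the 3 control EC libraries. The groups did not overlap, and Fcgr2b was 83.4-fold lower in macrophages (log2 difference -6.38, SE 0.82, edgeR adjusted p = 0.00063). Fcgrt was also lower in macrophages, at 493, 517 and 523 CPM against 793, 831 and 905 CPM (log2 difference -0.71, SE 0.14, adjusted p = 0.0045). Higher in macrophages were Fcgr4 (log2 difference 10.66, SE 0.44), Fcgr3 (6.33, SE 1.04) and Fcer1g (3.96, SE 0.18), with edgeR adjusted p values from 5.2e-06 to 0.0021. All 5 members counted thus differed, in a comparison in which 49.2% of all genes passed. Fcgr1 was left out of this count because of the sort gate, and Fcrls because it had 0 counts in all 6 EC libraries. Cell type and count table cannot be told apart in this comparison.

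The γ chain gene Fcer1g was present in ECs at 62.0 to 78.2 CPM in control and 62.1 to 91.7 CPM in HSC-KO libraries. To set this beside the macrophage RNA that an EC library held, the median level of 7 macrophage markers (the list without Fcgr1) was taken as a share of their level in macrophages of the same genotype. That share was 0.0902 to 0.11% in control ECs and 0.0188 to 0.0352% in HSC-KO ECs, and would supply at most 1.22 CPM of Fcer1g. Fcgr1 had 23, 23 and 6 counts in control ECs (0.248, 0.324 and 0.0706 CPM, with a supply of 0.283 to 0.344 CPM) and 0 counts in each HSC-KO EC library, where 3 counts, the limit that a count of 0 allows, correspond to at most 0.0365 CPM, below the supply of 0.0622 to 0.116 CPM. Fcgr4 was at 0.443, 0.169 and 0.212 CPM in control ECs, against a supply of 0.432, 0.405 and 0.493 CPM, and at 0, 0.0852 and 0.0853 CPM in HSC-KO ECs, against 0.0868, 0.11 and 0.0588 CPM.

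**Figure D1:**
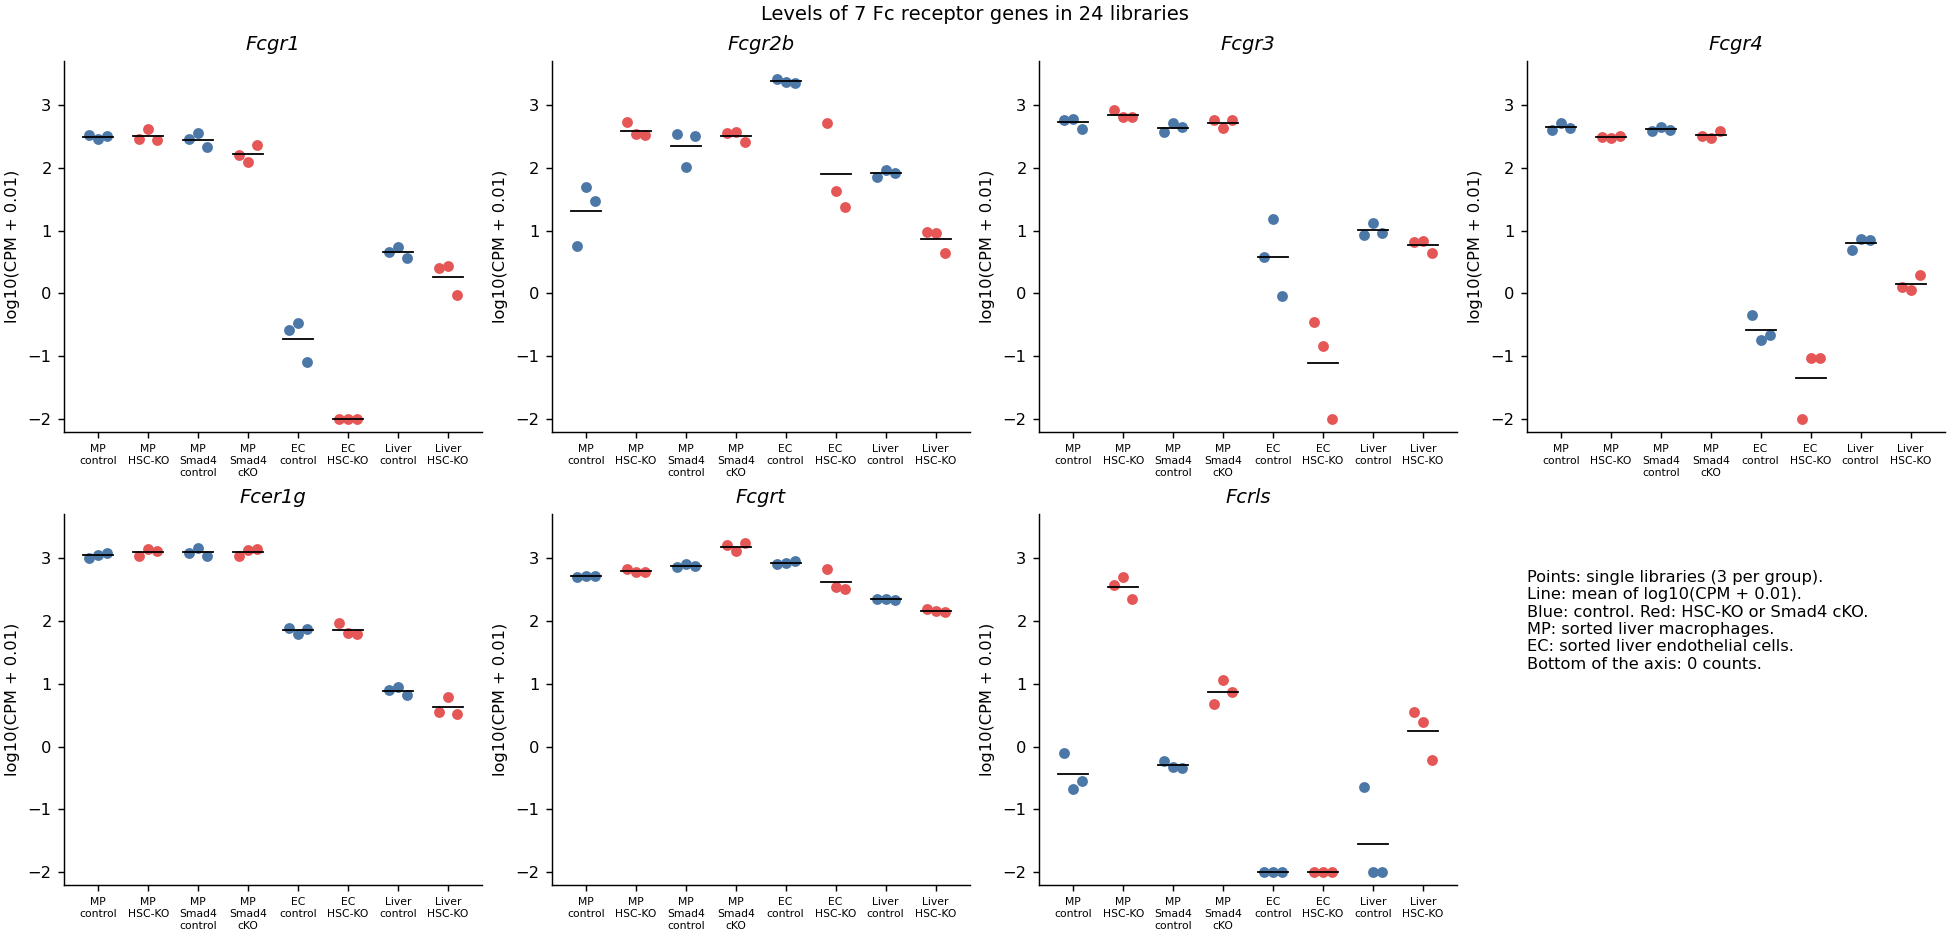
Level of each of the 7 genes as log10(CPM + 0.01) in all 24 libraries; each point is 1 library, the line is the mean of 3, and blue and red mark control and knockout groups (MP, macrophages). Fcgr2b was highest in control ECs (2279.5 to 2598 CPM), Fcrls was above 200 CPM in the 3 HSC-KO macrophage libraries only (226 to 499.6 CPM), and Fcgr1, Fcgr3 and Fcgr4 were lowest in ECs of HSC-KO mice.

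Loss of Gdf2 and Bmp10 from HSCs was followed in macrophages by a rise of the inhibitory receptor gene Fcgr2b and of Fcrls. Of the 7 members, 2 rose and 1 fell with an adjusted p below 0.05 in edgeR's quasi-likelihood test, whereas 9.29% of all 16337 genes tested rose and 9.87% fell. The median log2 fold change was 0.28 for the members and 0.04 for all genes.

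Fcrls was almost silent in control macrophages and, per kilobase, its mean was above those of Fcgr1 and Fcgr2b in HSC-KO macrophages. Its HSC-KO libraries (96.9 to 214 CPM per kb) overlapped with those of Fcgr1 (109 to 162). It had 67, 17 and 16 counts (0.787, 0.199 and 0.274 CPM) in control libraries and 33457, 47966 and 20867 counts (378, 499.6 and 226 CPM) in HSC-KO libraries. The groups were far apart, with a log2 fold change of 9.74 (SE 0.61, adjusted p = 9e-05), that is 853-fold. It passed the test in each alternative fit, with log2 fold changes from 8.37 to 10.62.

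Fcgr2b was at 528, 343 and 332 CPM in HSC-KO macrophages, above all 3 control libraries (5.76, 49.8 and 29.4 CPM). Its log2 fold change was 3.82 (SE 0.70, adjusted p = 0.0084), that is 14.1-fold, and from 3.34 to 4.50 when 1 library was left out, the highest without control replicate 2 (adjusted p = 0.012). Per kilobase it went from a mean of 4.89 (0.994 to 8.6) to 69.3 (57.4 to 91.1) CPM per kb (n = 3), still below Fcgr1 in the same libraries (127 ± 29.6). With the summed endothelial markers as a covariate, the log2 fold change was 5.79 and the adjusted p = 0.051, in a fit that left 750 of 3129 calls over all genes.

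To set the Fcgr2b level of macrophages beside the endothelial RNA in the same libraries, the share of that RNA was taken from markers. The median level of the 11 endothelial markers, as a share of their level in ECs of the same genotype, was 0.0919, 1.72 and 1.12% in control macrophages and 0.0514, 0.0433 and 0.305% in HSC-KO macrophages. In the control libraries, that share of the EC level corresponded to 2.2, 41.1 and 26.9 CPM of Fcgr2b, and 5.76, 49.8 and 29.4 CPM were measured, 1.09 to 2.61 times as much. In the HSC-KO libraries it corresponded to 0.0854 to 0.6 CPM, or to 1.04 to 7.3 CPM at the level of control ECs, and 332 to 528 CPM were measured. The shares overlapped between the groups, as HSC-KO replicate 3 (0.305%, with 332 CPM of Fcgr2b) was above control replicate 1 (0.0919%, with 5.76 CPM). Markers of monocytes and of other blood cells were mixed. Of the B cell markers, Ms4a1 was near 0 in HSC-KO macrophages (at most 1.64 CPM) and Cd79b rose (159 to 191 CPM against 51.8 to 93.4 CPM in control macrophages, log2 fold change 1.24, SE 0.21). The 3 neutrophil markers that could be tested did not pass, and Ly6g was at 0 in both groups. Of the 5 monocyte markers, 3 rose and 1 fell, and their summed level was 1398 to 2126 CPM in HSC-KO against 120.4 to 205 CPM in control macrophages. Most of that sum was Cx3cr1 (1358 to 2039 CPM), whereas Ly6c2 was at 0.542 to 4.03 CPM and Chil3 at most at 0.0434 CPM. T and NK cell markers were summed to 29.6 to 93.5 CPM, against 4.02 to 12.1 CPM. The paper proposes that, in these mice, cells derived from monocytes took the place of embryonic Kupffer cells. The part of a changed macrophage population, or of other blood cells, in the rise of Fcgr2b and Fcrls was not tested.

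**Figure D2:**
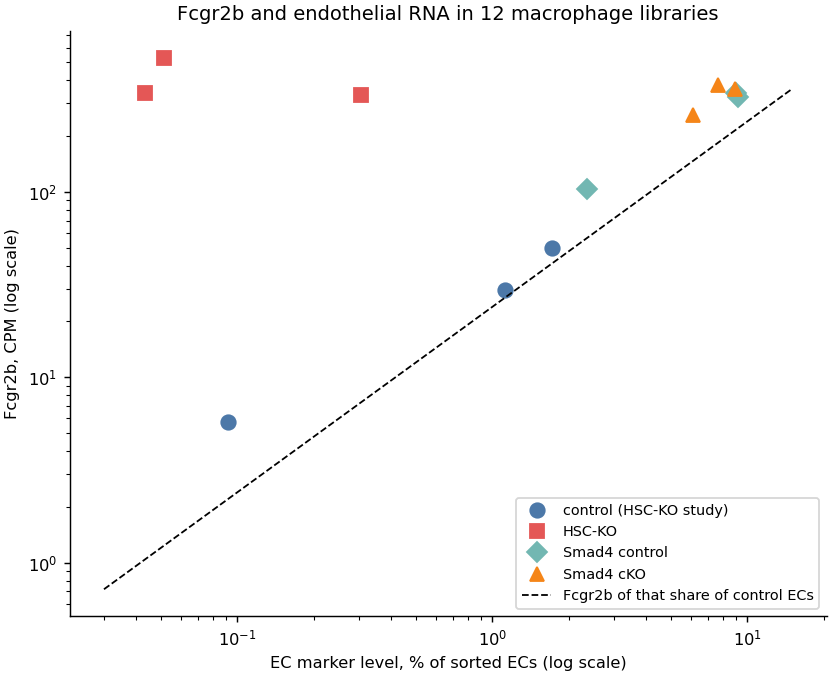
Fcgr2b level (CPM) against the level of 11 endothelial markers, as a percentage of that in sorted ECs, in 12 macrophage libraries. Both axes are log. HSC-KO macrophages were set against HSC-KO ECs, and all others, with both Smad4 groups, against control ECs of the Gdf2/Bmp10 experiment. The dashed line is the Fcgr2b level that this share of control ECs would hold. The 3 HSC-KO libraries (332 to 528 CPM) lie far above the line, and the other 9 libraries lie at 1.09 to 2.61 times its level.

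The activating receptors differed far less between the groups. Of the macrophage markers in the same libraries, Csf1r (-0.77, SE 0.15), Cd68 (-0.73, SE 0.18) and Adgre1 (-0.56, SE 0.13) fell and Ptprc rose (0.67, SE 0.12), and their part in the values of the receptors was not tested. Fcgr4 was at 305, 304 and 327 CPM, below all 3 control libraries (399, 519 and 430.2 CPM), and fell by 0.53 on the log2 scale (SE 0.13, adjusted p = 0.030). This call did not hold when any library except control replicate 1 was left out (adjusted p from 0.056 to 0.11), with library size alone (0.054), with the replicate block (0.054), or with Xist (0.056) or the endothelial markers (log2 fold change -0.28, adjusted p = 0.63) as a covariate. Fcgr3 was at 826, 648 and 656 CPM against 576, 607 and 420.2 CPM, without overlap between the groups, but did not pass the test (log2 fold change 0.41, SE 0.18, adjusted p = 0.15). With Xist as a covariate it passed (0.58, adjusted p = 0.021). Fcgr1, the gated gene, differed by 0.07 (SE 0.17, adjusted p = 0.83) and its partner Fcer1g by 0.18 (SE 0.15, adjusted p = 0.44), and the libraries of both overlapped between the groups. Fcgrt was at 667, 598 and 606 CPM against 493, 517 and 523 CPM (log2 fold change 0.28, SE 0.11, adjusted p = 0.13).

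**Figure D3:**
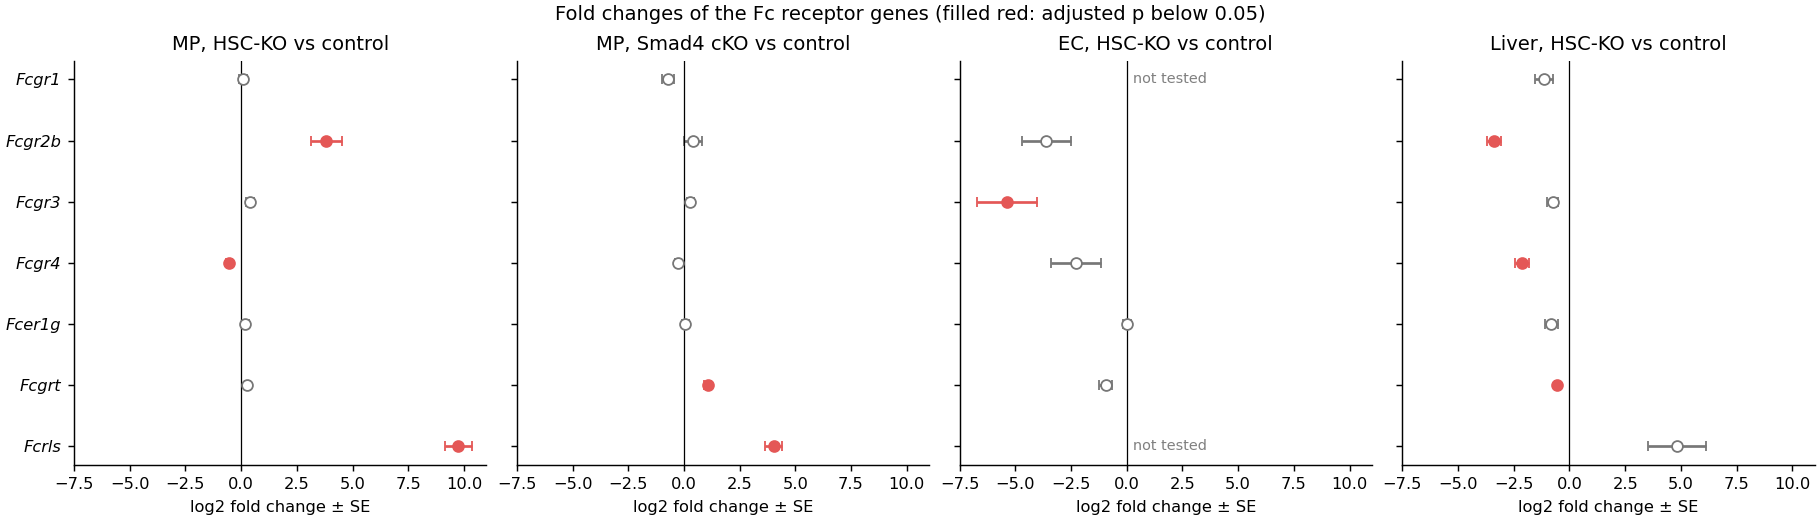
Log2 fold change with its standard error (x axis) for each gene in the 4 comparisons of knockout and control; filled red points passed the test and open points did not. Fcgr2b was at 3.82 in HSC-KO macrophages and at -3.39 in HSC-KO livers, Fcrls was above 0 in the 3 comparisons in which it was tested, and Fcer1g did not pass in any.

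Fcrlb and Fcrla, other genes of the Fc receptor family, lie next to Fcgr2b on the same strand, with Fcrla (chr1:170917576-170927583) 31.0 kb and Fcrlb (chr1:170907273-170912941) 45.7 kb beyond its 3′ end. Fcrlb had 0 counts in all 3 control macrophage libraries and 172, 209 and 133 counts in HSC-KO macrophages (1.44 to 2.18 CPM), at least 36.1-fold higher against 3 counts per library. In ECs, Fcrlb had 227, 79 and 242 counts in control and 78, 0 and 0 in HSC-KO libraries. It did not pass in ECs (log2 fold change -3.11, SE 1.47, edgeR adjusted p = 0.19), and without HSC-KO replicate 1 only HSC-KO libraries at 0 counts remained. Fcrlb was thus detected in the same sorted groups of the Gdf2/Bmp10 experiment in which Fcgr2b was high, and in the EC library HSC-KO replicate 1, in which Fcgr2b was at 525 CPM. Fcrla had 436, 415 and 358 counts in control ECs and 35, 5 and 0 in HSC-KO ECs (log2 fold change -5.20, SE 1.01, adjusted p = 0.010, and -7.34 with 0.0011 without HSC-KO replicate 1). In macrophages, Fcrla overlapped between the groups, with 52, 103 and 60 counts in control and 162, 46 and 298 in HSC-KO libraries. Whether these reads came from transcripts that run on from Fcgr2b was not tested.

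The Smad4 comparison asked which of these changes appeared when Smad4 was deleted in blood-derived cells instead. Smad4 is a common Smad of ALK receptor signalling and does not serve BMPs alone. Here Fcrls and Fcgrt rose, and no member fell. In all, 2 of 7 members rose and 0 of 7 fell, against 3.71% and 4.03% of 17517 genes. The members' median log2 fold change was 0.29, against 0.04 for all genes. Fcgr1 was the only member lower at an unadjusted p below 0.05 in edgeR, and DESeq2 likewise called 0 members lower.

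Fcrls had 56, 43 and 47 counts in Smad4 control and 472, 1397 and 644 counts in Smad4 cKO macrophages (4.73, 11.5 and 7.45 CPM). The groups did not overlap, and the log2 fold change was 4.02 (SE 0.38, adjusted p = 0.0010), that is 16.3-fold. Fcgrt was at 1616, 1287 and 1718 CPM in Smad4 cKO against 722, 793 and 749 CPM in Smad4 control macrophages. It was the highest Fcgrt level of all 8 groups, with a log2 fold change of 1.06 (SE 0.14, adjusted p = 0.0039), that is 2.08-fold. Endothelial RNA would supply at most 77.8 CPM of Fcgrt in any of these libraries. Both calls held in every alternative fit.

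Fcgr2b was at 343, 103 and 323 CPM in Smad4 control and at 359, 376 and 258 CPM in Smad4 cKO macrophages, and the groups overlapped (log2 fold change 0.40, SE 0.41, adjusted p = 0.65). These libraries held more endothelial RNA than those of the Gdf2/Bmp10 experiment (at most 1.72%), at 9.02, 2.36 and 9.23% of the EC level in Smad4 control and 8.95, 7.71 and 6.14% in Smad4 cKO libraries. That share of control ECs corresponded to 56.6 to 221 CPM of Fcgr2b, and 1.46 to 2.03 times as much was measured. The Smad4 control library with the least endothelial RNA, replicate 2, was also the one with the least Fcgr2b. How much Fcgr2b the macrophages themselves held in this experiment cannot be told apart from the endothelial RNA.

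The other members did not pass the test in Smad4 cKO macrophages. In these libraries the macrophage markers Adgre1 (-1.31, SE 0.14), Lyz2 (-1.16, SE 0.18) and Aif1 (-0.84, SE 0.14) fell, and the summed level of the 8 markers was 9542 to 13375 CPM, against 18677 to 22415 CPM in Smad4 control macrophages. The part of this in the values of the members was not tested. Fcgr1 was at 161, 122 and 235 CPM against 287, 361 and 218 CPM, with overlapping groups (log2 fold change -0.71, SE 0.27, adjusted p = 0.18). Fcgr3 differed by 0.29 (SE 0.16, adjusted p = 0.37), Fcgr4 by -0.25 (SE 0.13, adjusted p = 0.34) and Fcer1g by 0.06 (SE 0.16, adjusted p = 0.88).

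The fold changes of the HSC-KO and Smad4 cKO macrophages were then compared as an interaction over 12 libraries. They differed for 2 of 7 members, against 3.02% of all genes. The rise of Fcrls was greater in HSC-KO macrophages, by 5.76 on the log2 scale (SE 0.68, adjusted p = 0.0012). The fold change of Fcgrt was smaller there (log2 difference -0.73, SE 0.17, adjusted p = 0.045). The Fcgrt difference held in the fit without Smad4 cKO replicate 2 (adjusted p = 0.020) and did not hold when any of the other 11 libraries was left out (0.051 to 0.11), with the replicate block (0.090) or with Xist as a covariate (0.070). Fcgr2b had a difference of 3.46 (SE 0.87, adjusted p = 0.057) and passed with DESeq2 (3.39, adjusted p = 0.011). Without the control macrophage library replicate 1 or 2, the Fcgr2b difference passed the threshold (2.98 and 4.10, adjusted p = 0.030 and 0.041), as it did, narrowly, without Smad4 control replicate 2 (3.77, 0.050), and without any of the others it did not (up to 0.15). The differences for Fcgr1 (0.83), Fcgr3 (0.16), Fcgr4 (-0.23) and Fcer1g (0.17) had adjusted p values from 0.26 to 0.83.

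In ECs, loss of Gdf2 and Bmp10 from HSCs was followed by a low Fcgr2b level in 2 of 3 libraries. Of the 5 members that could be tested, 0 rose and 1, Fcgr3, fell in edgeR's test, against 10.3% and 9.77% of 16053 genes. The members' median log2 fold change was -2.26, against 0.00 for all genes. No member was higher at an unadjusted p below 0.05 in edgeR, and DESeq2 called 0 members higher.

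Fcgr2b was at 525, 43.1 and 23.4 CPM in HSC-KO ECs, against 2598, 2317 and 2279.5 CPM in control ECs. All 3 HSC-KO libraries were below all control libraries, and replicate 1, which also kept the most Stab2 and Clec4g, was far above the other 2. The log2 fold change was -3.62 (SE 1.10, adjusted p = 0.056). Without HSC-KO replicate 1 it was -6.17 (adjusted p = 7.8e-05), and with the replicate block -5.04 (0.026). With the summed macrophage markers as a covariate the direction turned, to 1.06 for Fcgr2b (SE 2.26, adjusted p = 1) and 0.54 for Fcgrt (SE 0.77, adjusted p = 1), in a fit that left 6 calls over all genes. The sinusoidal endothelial markers were lower in the same libraries, with summed levels of 142 to 1206 CPM in HSC-KO against 9053 to 10551 CPM in control ECs. Of these 4 markers, Clec4g (-7.88, SE 1.39), Lyve1 (-6.61, SE 0.27) and Mrc1 (-3.34, SE 0.72) fell, and Stab2 was at -2.58 (SE 0.84, adjusted p = 0.071). Their part in the Fcgr2b level was not tested. Fcgrt followed the same order, at 668, 343 and 318 CPM against 793, 831 and 905 CPM (log2 fold change -0.94, SE 0.29, adjusted p = 0.059). Without HSC-KO replicate 1 it was -1.35 (adjusted p = 0.0019), and DESeq2 also called it (-0.92, adjusted p = 0.0047). Without this library, 3 of these 5 members fell in place of 1, in a fit in which 9.86% of 16648 genes rose and 10.1% fell. Fcgr1 then also entered the fit, through its counts in control libraries alone (23, 23 and 6). It had 0 counts in both remaining HSC-KO libraries, so its test is not counted.

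Fcgr3 had 357, 1084 and 76 counts in control ECs (3.86, 15.3 and 0.895 CPM) and 36, 11 and 0 counts in HSC-KO ECs. The groups did not overlap, and the log2 fold change was -5.38 (SE 1.35, adjusted p = 0.028). Without HSC-KO replicate 1 it was -6.66 (adjusted p = 0.030). The call did not hold without control replicate 1 (-5.67, adjusted p = 0.053) or 2 (-3.89, 0.094), without HSC-KO replicate 2 (-5.27, 0.10) or 3 (-4.80, 0.065), or with Xist (-5.07, 0.064) or the macrophage markers (-0.54, SE 3.31, adjusted p = 1) as a covariate. Macrophage RNA would supply 0.482 to 0.587 CPM of Fcgr3 in control ECs, which is below the measured level in each control library. In HSC-KO ECs, 0.339, 0.134 and 0 CPM were measured, against a supply of 0.198, 0.25 and 0.134 CPM. Fcgr3 counts were also small beside those of Fcgr2b, with which it shares the 129-base stretch, at 0.0392 to 0.659% of them in control and 0 to 0.311% in HSC-KO ECs. The part of these sources in the Fcgr3 counts was not tested.

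The γ chain gene Fcer1g overlapped between the groups, at 91.7, 64.5 and 62.1 CPM in HSC-KO against 78.2, 62.0 and 75.6 CPM in control ECs (log2 fold change 0.01, SE 0.18, adjusted p = 0.98, and -0.18 without HSC-KO replicate 1). Fcgr4 was at most at 0.443 CPM in all 6 libraries (log2 fold change -2.26, SE 1.12, adjusted p = 0.21), and at -1.67 (adjusted p = 0.27) without HSC-KO replicate 1. Fcgr1 was too low for the test and was at least 5.87-fold higher in control ECs than the level of 3 counts per HSC-KO library.

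The fold changes in macrophages and ECs of the Gdf2/Bmp10 experiment were compared as an interaction, and differed for 3 of 5 members, against 15.3% of all genes. Fcgr2b had fold changes of opposite sign in the 2 cell types, with a difference of 7.45 on the log2 scale (SE 1.53, adjusted p = 0.0075), and this held in every alternative fit that gave it an adjusted p (6.92 to 10.01). Fcgr2b was 2279.5 to 2598 CPM in control ECs and 5.76 to 49.8 CPM in control macrophages, whereas HSC-KO macrophages (332 to 528 CPM) were above 2 of the 3 HSC-KO EC libraries and overlapped with replicate 1 (525 CPM). Of the HSC-KO mice that gave both libraries, one held 332 CPM in macrophages and 525 CPM in ECs, and the other 343 and 23.4 CPM. Fcgr3 differed by 5.78 (SE 1.34, adjusted p = 0.014) and did not pass in limma voom with the mouse as a random block (6.31, adjusted p = 0.067). Fcgrt differed by 1.23 (SE 0.34, adjusted p = 0.034), a call that was lost (0.054 to 0.079) without any 1 library except the EC library HSC-KO replicate 1. Fcgr4 (1.82, SE 0.73, adjusted p = 0.12, but 0.011 with DESeq2) and Fcer1g (0.18, SE 0.26, adjusted p = 0.73) did not pass. Fcgr1 and Fcrls were left out, as each had 0 counts in a whole EC group.

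In whole livers, Fcgr2b, Fcgr4 and Fcgrt fell. In edgeR's test, 3 of 7 members fell and 0 rose, against 1.59% and 1.24% of 17118 genes. The members' median log2 fold change was -0.81, against -0.01 for all genes. DESeq2 also called 0 members higher, and Fcrls, which entered the test through its counts in HSC-KO livers, did not pass.

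Fcgr2b was at 71.0, 92.6 and 84.3 CPM in control and at 9.46, 9.28 and 4.39 CPM in HSC-KO livers. The groups were far apart, with a log2 fold change of -3.39 (SE 0.30, adjusted p = 0.0020), that is 10.5-fold lower, and the call held in every alternative fit (-3.56 to -3.09). Fcgr4 was at 4.83, 7.41 and 7.03 CPM in control and at 1.26, 1.11 and 1.94 CPM in HSC-KO livers (log2 fold change -2.13, SE 0.31, adjusted p = 0.014). This call did not hold without control replicate 2 or 3 or HSC-KO replicate 1 (adjusted p from 0.071 to 0.077). Fcgrt, the most abundant member per kilobase in livers, was at 222, 224 and 217 CPM in control and at 157, 144 and 138 CPM in HSC-KO livers (log2 fold change -0.56, SE 0.11, adjusted p = 0.046). Its groups did not overlap, but the call was lost without any 1 of the 6 libraries (adjusted p from 0.077 to 0.17), with Xist as a covariate (0.074), with the replicate block (0.11) and without the filter on low counts (0.065).

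The activating receptors Fcgr1 (log2 fold change -1.13, SE 0.41, adjusted p = 0.28) and Fcgr3 (-0.76, SE 0.25, adjusted p = 0.23) and their γ chain Fcer1g (-0.81, SE 0.28, adjusted p = 0.25) did not pass, although no HSC-KO liver reached the lowest control liver for any of them. Fcrls had 20, 0 and 0 counts in control and 229, 175 and 37 counts in HSC-KO livers, without overlap (log2 fold change 4.83, SE 1.31, adjusted p = 0.13). In the same livers, all 4 sinusoidal endothelial markers fell, from -9.73 (Clec4g) to -2.81 (Mrc1) on the log2 scale. Of 8 macrophage markers, 3 fell, namely Csf1r (-2.17, SE 0.22), Adgre1 (-1.72, SE 0.28) and Mertk (-1.19, SE 0.17), and of 11 general endothelial markers 3 rose and 2 fell. In whole tissue, fewer cells of a type and less RNA per cell cannot be told apart.

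The balance of activating and inhibitory receptors was described for each library as the log2 ratio of the summed per-kilobase levels of Fcgr1, Fcgr3 and Fcgr4 over that of Fcgr2b. In control macrophages it was 9.61, 6.67 and 7.13, and in HSC-KO macrophages 3.19, 3.71 and 3.7, so that the groups did not overlap. Activating receptor transcripts still exceeded those of Fcgr2b in each HSC-KO macrophage library. The Smad4 control (3.42, 5.47 and 3.55) and Smad4 cKO macrophages (3.38, 3.06 and 4.05) overlapped, in libraries with 2.36 to 9.23% of the endothelial marker level. Livers went the other way, from -0.22, -0.02 and -0.23 in control to 1.83, 1.88 and 2.57 in HSC-KO livers. In ECs the ratio was -9.11 to -5.47 in control and -8.86 to -5.68 in HSC-KO libraries, with overlap. In 5 of 8 groups the mean was above 0, also without the gated gene Fcgr1 and on raw counts.

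**Figure D4:**
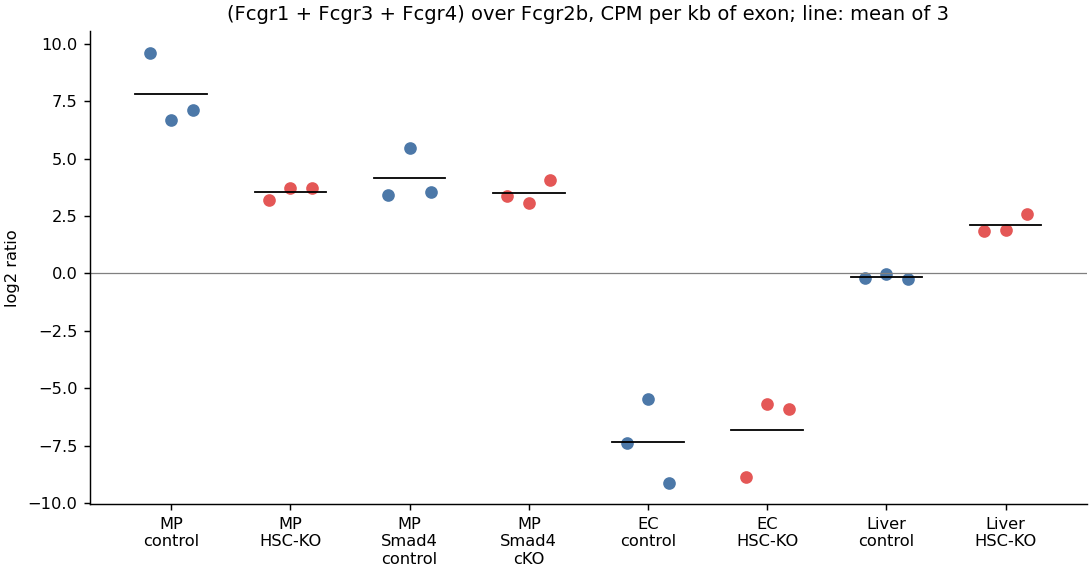
Log2 ratio of the summed per-kilobase levels of Fcgr1, Fcgr3 and Fcgr4 over Fcgr2b in each of the 24 libraries (points) with the mean of 3 (line); above 0, activating receptor transcripts exceed those of Fcgr2b. HSC-KO macrophages (3.19 to 3.71) lie below control macrophages (6.67 to 9.61), and HSC-KO livers (1.83 to 2.57) above control livers (-0.23 to -0.02).

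Other genes of Fc receptor signalling were described by 4 lists: 12 other Fc receptors, 9 γ chain partners and ITAM adaptors, 24 activating signalling genes and 16 inhibitory receptors and phosphatases. In HSC-KO macrophages, 5 of 24 activating signalling genes rose and 4 fell, with a list median of 0.01 against 0.04 for all genes, of which 9.29% rose and 9.87% fell. The adaptor genes Lat2 and Blnk rose most. Lat2 was at 0.597 to 0.753 CPM in control and 38.0 to 42.7 CPM in HSC-KO macrophages (log2 fold change 5.91, SE 0.18, adjusted p = 9.2e-06), and Blnk at 11.3 to 16.1 against 127 to 185 CPM (3.54, SE 0.20, adjusted p = 6.8e-05). Pik3cg, a catalytic subunit of PI3-kinase, and Vav3, a guanine nucleotide exchange factor, rose by 2.04 (SE 0.30) and 1.90 (SE 0.22). Of the 16 inhibitory genes, 2 rose and 3 fell (median -0.19). The risers were Inpp5d (0.81, SE 0.11, adjusted p = 0.0023), which encodes SHIP1, the phosphatase recruited by FcγRIIB, and Clec4a2 (1.12, SE 0.16), an ITIM-bearing lectin. Among those that fell were Pecam1 (-1.82, SE 0.47), itself an endothelial marker, and the adaptor Dok2 (-1.75, SE 0.32). Of 7 tested partners, the γ chain-coupled lectin Clec4n rose (1.19, SE 0.12) and Treml4 fell (-2.01, SE 0.31), with a median of -0.27. Of 7 tested other Fc receptors, Fcrlb rose (median -0.48).

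Lat2, Blnk and Inpp5d also rose in Smad4 cKO macrophages. Blnk was at 5.45 to 7.24 CPM in Smad4 control and 64.8 to 81.2 CPM in Smad4 cKO macrophages (log2 fold change 3.49, SE 0.17, adjusted p = 7.1e-05), and Lat2 at 2.06 to 4.78 against 23.2 to 27.7 CPM (2.92, SE 0.31, adjusted p = 0.0016). Inpp5d rose by 0.62 (SE 0.15, adjusted p = 0.046). In all, 4 of 24 activating genes rose and 1 fell (Cybb, the NADPH oxidase subunit gp91phox, -0.81, SE 0.15), and 1 of 16 inhibitory genes rose, where 3.71% of all genes rose and 4.03% fell. The 7 tested other Fc receptors and 7 tested partners did not pass, and Fcrlb came closest (log2 fold change 1.79, SE 0.45, adjusted p = 0.056). Of the B cell markers in the same libraries, Cd79b rose (173 to 197 CPM against 68.0 to 112 CPM, log2 fold change 1.18, SE 0.21), whereas Cd79a (-0.67, SE 0.43) and Ms4a1 (-0.47, SE 0.54) did not pass. T and NK cell markers overlapped between the groups (32.9 to 143 CPM in Smad4 cKO and 36.1 to 84.6 CPM in Smad4 control macrophages), as did neutrophil markers (34.9 to 39.9 against 34.3 to 60.1 CPM). Monocyte markers were summed to 616 to 889 CPM, against 139 to 174 CPM, and of these Cx3cr1 rose and Plac8 fell (-4.02, SE 0.34). The part of other blood cells, or of a changed macrophage population, in the rise of Lat2 and Blnk was not tested. The rise of Lat2 was greater in HSC-KO macrophages by the interaction test (3.04, SE 0.36, adjusted p = 0.0012).

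In HSC-KO ECs, 3 of 21 tested activating genes rose and 7 fell (median -0.71, against 0.00 for all genes, of which 10.3% rose and 9.77% fell), among them Vav1 (-6.71, SE 1.29) and Lcp2 (-3.01, SE 0.53), both typical of blood cells, and Prkcd, which rose (2.00, SE 0.30). Tyrobp, the ITAM adaptor of myeloid cells, was at 1.66 to 3.27 CPM in control and 0.203 to 0.442 CPM in HSC-KO ECs (-2.92, SE 0.45, adjusted p = 0.0040), beside the lower macrophage marker share of these libraries. Of 13 inhibitory genes, Pecam1 rose (0.83, SE 0.16) and Sirpa (-3.43, SE 0.25) and Dok1 (-1.03, SE 0.24) fell. Without HSC-KO replicate 1, an alternative added after the data were seen, 3 of 21 activating genes rose and 8 fell (median -0.63), against 9.86% and 10.1% of all genes. Vav1 was then at -6.65 (adjusted p = 0.041), Lcp2 at -3.51 (0.0047), Prkcd at 2.15 (0.0035), Tyrobp at -3.20 (0.0053), Pecam1 at 0.85 (0.017), Sirpa at -3.72 (4.4e-05) and Dok1 at -1.21 (0.013) in edgeR. The calls of Treml4 (-3.69, SE 1.02, adjusted p = 0.040) and of Rac2, a small GTPase of blood cells (-1.97, SE 0.54, adjusted p = 0.038), both lower with all 6 libraries, were lost without this library (-3.94 with 0.087, and -2.12 with 0.061), which left 1 of the partners lower in place of 2. Cd247, the ζ chain gene, had 0 counts in all control and 170, 256 and 377 counts in HSC-KO ECs, at least 68.9-fold higher, while T and NK cell markers were at 0 in these HSC-KO libraries. Of other blood cell markers in the same ECs, Ly6c2 (54.2 to 68.3 CPM against 0.0942 to 0.184 CPM in control ECs), Plac8 (log2 fold change 1.14, SE 0.30) and Csf3r (0.988 to 1.12 against at most 0.0432 CPM) rose, with the other 4 neutrophil markers at 0. Among monocyte markers, Cx3cr1 did not pass (log2 fold change 1.76, SE 1.82), Ccr2 was too low for the test and Chil3 was at 0. Of the tested macrophage markers, 0 rose and 3 fell, and of the Kupffer cell markers 0 rose and 4 fell. The part of such cells in the rise of Cd247 was not tested. In livers, where 1.24% of all genes rose and 1.59% fell, 5 of 24 activating genes fell (median -1.03), for example Ncf1 (-1.51, SE 0.28), an NADPH oxidase subunit, and of 16 inhibitory genes 4 fell, with Siglece (-2.14, SE 0.39) and Siglec1 (-2.05, SE 0.39) lowest, and 1 rose. The tested other Fc receptors and partners did not pass, and Treml4 came closest (-2.22, SE 0.45, adjusted p = 0.050). These falls accompanied the lower macrophage markers given above, and their part was not tested.

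**Figure D5:**
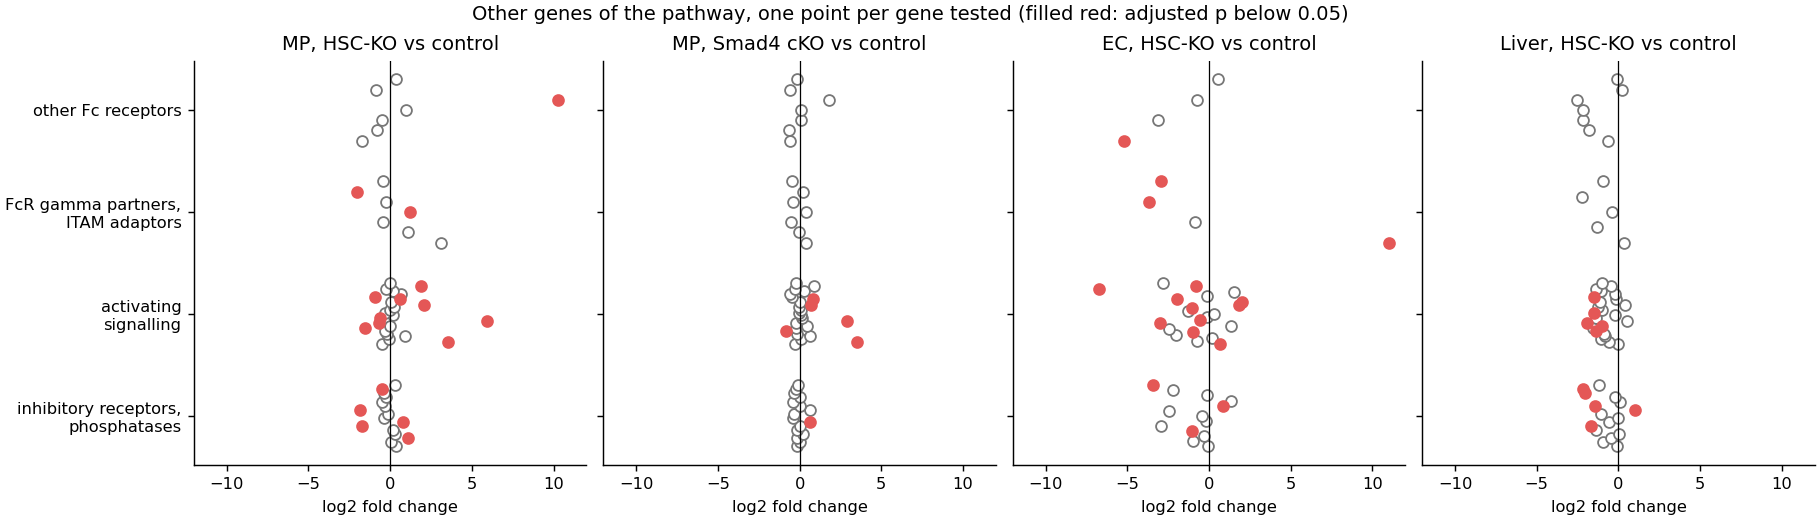
Log2 fold change of each tested gene of the 4 Fc receptor signalling lists in the 4 comparisons of knockout and control; filled points passed the test, open points did not, and MP stands for macrophages. The rightmost points, Fcrlb in HSC-KO macrophages and Cd247 in ECs, rest on control groups at 0 counts and their place depends on the prior count, while in HSC-KO macrophages Lat2 (5.91) and Blnk (3.54) lie far above 0, and in livers 5 of 24 activating genes fell.

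The genes whose pattern over all 24 libraries was most like that of each member were taken from 8277 genes by Pearson's r of log2 CPM, a description over libraries that share cell types. Fcgr1 was most like Cd86, C1qa and Lair1 (r from 0.993 to 0.9942), Fcgr4 like Clec12a, Laptm5 and AB124611 (0.9922 to 0.993), Fcer1g like Tmem86a, Ppp1r18 and Ptpn18 (0.9907 to 0.9928) and Fcgr3 like Cd300c2, Fermt3 and Pld4 (0.9785 to 0.979). Fcgrt was most like Ggh, Strada and Tex261 (0.9361 to 0.9462), Fcgr2b like Tpbgl, Zmynd15 and Stab1 (0.8847 to 0.9244) and Fcrls like Tgfbr1, Cx3cr1 and Eef2k (0.886 to 0.9379). Cx3cr1, the fractalkine receptor, rose with Fcrls in both macrophage comparisons, by 6.11 (SE 0.27) in HSC-KO and 6.14 (SE 0.21) in Smad4 cKO macrophages.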

How the data were processed

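The authors sequenced RNA of sorted liver macrophages, sorted ECs and whole livers, aligned reads to GRCm38 (mm10) with HISAT2 and counted them per gene with featureCounts. Versions, annotation release, use of strand and treatment of reads that map to several places are not given in the sources used here. The 4 deposited tables hold raw read counts for 48820 entries, of which 483 share 237 symbols. No molecular identifiers were used, so floors cover counting error only. Samples were grouped by the labels, 3 per group. Counts were tested with edgeR 4.0.16 (R 4.3.3; quasi-likelihood test, TMM, filterByExpr with a minimum count of 10 and total of 15), with Benjamini-Hochberg adjustment over all genes tested. A gene passed with an adjusted p below 0.05. SEs are the log2 fold change divided by the square root of F. Levels are CPM with TMM over 24 libraries, per kilobase of GENCODE vM21 exon bases where genes are compared. A limit from 0 counts is 3 counts. Alternatives were DESeq2 1.42.0, its size factors, library size alone, no filter, a replicate block, Xist or marker covariates, limma 3.58.1 voom with the mouse as a block, and leaving out each library. Xist, a transcript of female cells, was a covariate in comparisons with a knockout where its log2 CPM spanned more than 4. Those comparisons may mix sexes, and how the sexes fell across the groups is not reported here. The procedure was tested on simulated data. All 7 genes are named throughout; of each list, up to 4 genes with the largest log2 fold change among those that passed. Likeness was sought among genes whose log2 CPM averaged 3 or more, and the 3 highest r are named. Fcrla in macrophages, Fcrlb in Smad4 cKO macrophages and Treml4 in livers were named after their values were seen. The 7 members and all lists were chosen with earlier results of these data known. Some markers and list genes are not reported here.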

Additional observations from a re-analysis of the deposited data

Results flagged for a closer look

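Several fold changes differed between comparisons by the interaction test of edgeR, with Benjamini-Hochberg adjustment over all genes. Between HSC-KO and Smad4 cKO macrophages, these were Fcrls, with a greater rise in HSC-KO macrophages (log2 difference 5.76), and Fcgrt, with a greater rise in Smad4 cKO macrophages (-0.73). Between macrophages and ECs of the Gdf2/Bmp10 experiment, they were Fcgr2b (7.45), Fcgr3 (5.78) and Fcgrt (1.23), each more positive in macrophages. With 3 libraries per group, no single library was tested as an outlier.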

How the results depend on the processing

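Of 598 alternative values for single genes, 520 kept their direction and their side of the threshold, 53 were no longer past it, 10 were newly past it and 15 changed sign. The number of members called stayed at 2 in Smad4 cKO macrophages and at 5 between control macrophages and ECs in each alternative run. In HSC-KO macrophages it was 3, and 2 with the replicate block, 2 with library size alone, 1 with the endothelial marker covariate and 2 to 3 when 1 library was left out. In ECs it was 2 with DESeq2, 2 with the replicate block, 0 with Xist or with the macrophage markers as a covariate (the latter left 6 calls over all genes), and 0 to 3 when 1 library was left out. In livers it was 3, and 2 with the replicate block, 2 without the filter, 2 with the Xist covariate and 1 to 2 when 1 library was left out. For the difference between the macrophage experiments it was 1 with the replicate block, 1 with the Xist covariate and 1 to 2 when 1 library was left out. Changes of sign were seen for Fcgr1 in HSC-KO macrophages with Xist (-0.01), with endothelial markers (-0.26) and without HSC-KO replicate 2 (-0.14; range over left-out libraries up to 0.17). Fcer1g changed sign in Smad4 cKO macrophages without control replicate 3 (-0.05) or cKO replicate 3 (-0.01; up to 0.18), and in ECs with the replicate block (-0.0034), with Xist (-0.06) and without control replicate 2 (-0.08) or HSC-KO replicate 1 (-0.18; up to 0.11). With macrophage markers as a covariate in ECs, Fcgr2b was 1.06 and Fcgrt 0.54. In the difference between macrophage experiments, Fcgr3 was -0.05 without control replicate 3 and -0.02 without Smad4 control replicate 2, and Fcer1g -0.03 without the latter (up to 0.24 and 0.26 over left-out libraries). Fcer1g was -0.02 between macrophages and ECs with library size alone. The cause of these changes was not tested. Library size alone moved the median of all genes to 0.298 in ECs (3028 higher and 937 lower, against 1661 and 1568), 0.191 in Smad4 cKO macrophages (1051 and 538, against 650 and 706), -0.119 in livers (173 and 329, against 212 and 272) and -0.155 between macrophages and ECs (1031 and 2210, against 1384 and 1426). DESeq2 called 2311 genes in Smad4 cKO macrophages against 1356, 1095 against 484 in livers and 1295 against 551 for the macrophage difference. The replicate block called 799, 296 and 345 there. Same-numbered libraries deviated together with correlations from -0.107 to 0.162 within the comparisons of 2 groups, so the numbers were not taken as pairs. DESeq2 gave no adjusted p for Fcgr2b in ECs. Members near 0 in ECs (Fcgr1, Fcgr4, Fcrls) are limited by depth.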
